A study of Mus musculus with 8 samples.

Results

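The genes described here encode the enzymes of glutathione, thioredoxin and peroxide metabolism in mouse 2-cell embryos. They were taken by name: all protein-coding genes whose symbol marks a glutathione transferase (Gsta, Gstk, Gstm, Gsto, Gstp, Gstt or Gstz), a glutathione peroxidase, a peroxiredoxin, a superoxide dismutase, a glutaredoxin or any gene with a symbol in Txn, and in addition Chac2, Gclc, Gclm, Gss, Gsr, Cat, Srxn1, Hmox1, Hmox2, Nfe2l2 and Keap1. The rule took 72 genes, all of which were among the 37310 genes of the deposited table. Of these, 53 were tested, having reached 1 FPKM in 4 or more libraries, and 46 of the 53 had at least 1 FPKM in every library. FPKM stands for fragments per length of transcript and per mapped fragment of the library, so it is a level per transcript length and a share of each library's RNA. The libraries came from fertilized eggs grown in G1 medium to the 2-cell stage. The 4 control libraries had DMSO, the solvent, in the medium, and the other 4 had triclocarban, an antibacterial agent of personal care products, at 6 µM. All 8 held polyadenylated RNA of whole embryos. The strain, the number of embryos in a library and the hour of collection are not given in the labels. Nothing in the labels ties a library to its own culture or litter, so p-values measure only how these libraries spread, and that spread may be technical.

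Glutathione is a small cysteine-containing peptide made from glutamate, cysteine and glycine in successive steps by glutamate-cysteine ligase (GCLC with its modifier GCLM) and glutathione synthetase (GSS). Glutathione peroxidases use it to reduce peroxides, glutathione transferases attach it to reactive or foreign compounds, glutaredoxins use it to reduce protein disulfides, and glutathione reductase (GSR) returns the oxidized form to the reduced one. Thioredoxins work in parallel: they supply electrons to the peroxiredoxins and are themselves recharged by thioredoxin reductases from NADPH. Many of these genes can be switched on by the transcription factor NRF2 (gene Nfe2l2), which KEAP1 holds at a low level in unstressed cells, through a DNA sequence called the antioxidant response element. The oocyte stores many of these transcripts, and the 2-cell stage is when stored transcripts are cleared and those of the embryo's own genome replace them.

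RefSeq promoter windows (GRCm38.p6, 250 bases before to 50 after a start site) were at hand for 63 of the 72 genes, in 86 windows. The core of the antioxidant response element was searched as TGACNNNGC on both strands, the TATA box as TATAAA and the CCAAT box as CCAAT, also on both strands. No base was required outside these letters, and matches of different motifs were not made to exclude each other. The antioxidant response core was in 12 of the 86 windows (14%), beside 13.0% of 21263 windows of all protein-coding genes. TATAAA was in 10.5% of the members' windows (all genes 12.6%) and CCAAT in 54.7% (all genes 38.2%). Several genes have more than 1 window and some overlap, so the windows are not independent. Matches of the response core follow for the transcription factor gene itself, for genes usually counted among its targets, and for Sod1, with the match in capitals and the strand chosen so that it reads from TGAC.

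Prdx1 (chr4:116685456-116685484, minus strand, at position -133 from the start): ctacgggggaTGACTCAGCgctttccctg
Gclm (chr3:122245413-122245441, minus strand, at position -134): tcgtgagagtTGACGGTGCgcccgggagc
Txnrd1 (chr10:82859104-82859132, minus strand, at position -92): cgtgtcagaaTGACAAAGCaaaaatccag
Srxn1 (chr2:152105542-152105570, minus strand, at position 28): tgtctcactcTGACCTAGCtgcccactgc
Sod1 (chr16:90220696-90220724, minus strand, at position -56): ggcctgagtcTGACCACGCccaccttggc
Nfe2l2 (chr2:75704885-75704913, minus strand, at position -240): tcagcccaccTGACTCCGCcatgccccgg

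Of the 12 genes with a match, Prdx1 and Sod1 were higher with triclocarban, Txndc11 was lower, 6 did not pass the test (Gclm, Gstm5, Nfe2l2, Txndc2, Txndc5 and Txnrd1) and 3 were below the filter (Gsta3, Gstm7 and Srxn1). Over all genes tested 11.3% were higher and 30.8% lower. The whole windows of 3 genes are shown because these had the deepest fall among the peroxiredoxins (Prdx4) and the largest rises of all members (Chac2 and Prdx1). Capitals mark any of the motifs on either strand. The Prdx1 window holds the response core and TATAAA, and those of Chac2 and Prdx4 hold CCAAT only. A match is a description of the letters and not of a bound site.

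Prdx1 (chr4:116685349-116685648, plus strand): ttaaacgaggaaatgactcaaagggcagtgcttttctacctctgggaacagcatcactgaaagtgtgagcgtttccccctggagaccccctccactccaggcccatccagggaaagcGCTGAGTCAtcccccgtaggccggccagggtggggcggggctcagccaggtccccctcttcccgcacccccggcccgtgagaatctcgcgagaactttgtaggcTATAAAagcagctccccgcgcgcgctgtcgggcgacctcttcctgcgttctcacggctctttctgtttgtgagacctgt
Chac2 (chr11:30986316-30986615, minus strand): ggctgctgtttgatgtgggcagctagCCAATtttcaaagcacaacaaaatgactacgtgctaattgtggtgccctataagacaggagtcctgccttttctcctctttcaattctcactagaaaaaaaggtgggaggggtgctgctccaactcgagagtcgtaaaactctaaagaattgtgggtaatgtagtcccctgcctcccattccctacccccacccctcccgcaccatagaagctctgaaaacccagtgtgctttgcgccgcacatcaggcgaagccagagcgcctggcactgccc
Prdx4 (chrX:155338411-155338710, minus strand): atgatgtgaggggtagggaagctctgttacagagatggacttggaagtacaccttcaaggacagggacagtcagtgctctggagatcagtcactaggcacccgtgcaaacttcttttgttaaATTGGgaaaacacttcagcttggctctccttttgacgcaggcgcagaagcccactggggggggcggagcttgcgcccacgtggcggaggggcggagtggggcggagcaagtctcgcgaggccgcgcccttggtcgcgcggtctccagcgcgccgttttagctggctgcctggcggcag

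The libraries differed in ways that touch every result below. Genes with at least 1 FPKM numbered 12828 to 13541 in controls and 11788 to 11957 with triclocarban. Mitochondrially encoded genes made up 16.6, 17.6, 22.6 and 24.3% of the FPKM sum in controls 1 to 4. With triclocarban they made up 11.1 to 17.6%. Controls 1 and 2 stood apart from controls 3 and 4, and triclocarban library 2 had the lowest FPKM sum (477882, others 533941 to 605986). Its rough estimate of depth was also the lowest, but depth is not known from FPKM. Transcripts stored by the oocyte, summed over 17 of 18 listed genes, made up 8557, 8172, 5975 and 6452 FPKM in controls 1 to 4 and 11837 to 16318 FPKM in the treated libraries, and 10 of 12 listed genes switched on at the 2-cell stage summed to 471 to 684 FPKM in controls and 269 to 816 with triclocarban. Btg4, Oosp1 and Dppa3 made up most of the stored transcript sum. Genes within these lists differed. Dppa3 had 1727, 1821, 3053 and 3470 FPKM in controls 1 to 4, the reverse of the control pairs in that sum. Against the rise of the sum, Zp3 had 49.0 to 60.8 FPKM in controls and 12.5 to 33.9 with triclocarban. Khdc3 had 8.07 to 11.3 and 5.93 to 7.31 FPKM. Zfp352 had 194 to 251 FPKM in controls and 47.8 to 139 with triclocarban, and Zscan4f 34.3 to 72.4 and 59.6 to 233. The 12 cumulus and granulosa cell genes summed to 5.06 to 9.85 FPKM in controls and 9.45 to 18.3 with triclocarban, with Amh, Lhcgr and Pgr at 0 in all libraries. Most of the treated sum was Cyp19a1 (1.23 to 4.47 FPKM in controls, 6.55 to 11.9 with triclocarban), while Tnfaip6 went the other way (1.53 to 5.01 and 0.23 to 0.49). The 7 sperm genes summed to 1.12 to 5.9 and 7.23 to 10.4 FPKM, most of it from Prm2, with Smcp at 0 throughout. Their part in the results was not tested. In such bulk RNA, fewer cells of a kind and less RNA per cell cannot be told apart, and transcript numbers per embryo were not measured.

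With triclocarban the members moved in both directions, as all genes tested did. Chac2, which encodes an enzyme that breaks glutathione down, and Prdx1, a cytosolic peroxiredoxin, rose most, while the glutaredoxin gene Glrx2, the endoplasmic reticulum peroxiredoxin gene Prdx4 and the phospholipid peroxidase gene Gpx4 fell most. Of the 53 members tested, 13 were higher (24.5%) and 16 lower (30.2%) at an adjusted p under 0.05 by limma on log2(FPKM + 1). Over all 12941 genes tested the shares were 11.3% higher and 30.8% lower, 42.1% in either direction. Of the 53 members, 10 had groups that did not overlap with triclocarban the higher one, and 18 with triclocarban the lower one. Of all 12941 genes tested, 1322 (10.2%) and 3882 (30.0%) did so. The members' median log2 change was 0.03, and that of all genes tested -0.19. The balance of directions depended on scaling, for the members as for all genes. Median-of-ratios scaling gave 20 higher and 14 lower members, beside 2637 and 3187 of all genes tested, whose median moved to 0.06. Quantile normalization gave 19 and 10 members, beside 2915 and 2847 of all genes, with a median of 0.14. After quantile normalization 6 calls were lost (Gclc, Gpx3, Gsto1, Keap1, Txndc11 and Txndc15), and without the filter, with more genes tested, 8 were (Gclc, Glrx, Gpx3, Gpx6, Gstk1, Gsto1, Gstp2 and Gstz1).

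**Figure D1:**
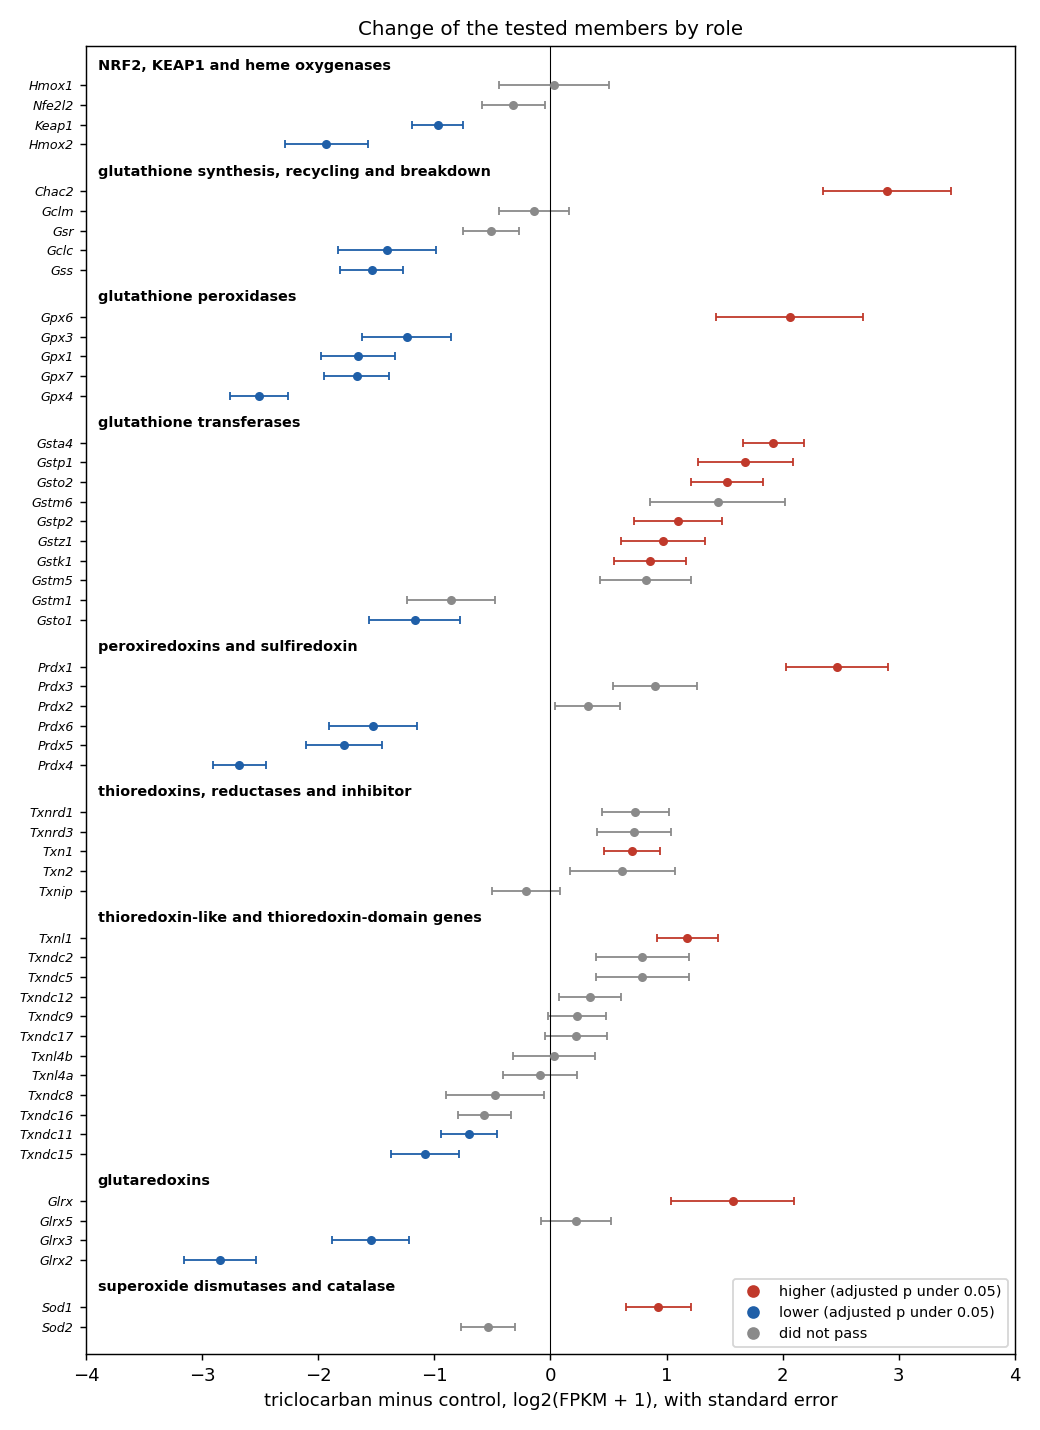
Log2 change (triclocarban minus control, on the log2(FPKM + 1) scale) of the 53 members tested, grouped by role, with bars of 1 standard error from the limma fit; red marks higher, blue lower and grey not passed. Peroxidases, peroxiredoxins and glutaredoxins each hold members on both sides of 0, and all 53 run from Chac2 at 2.90 to Glrx2 at -2.85.

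Nfe2l2, the gene of NRF2, had 12.6, 11.6, 15.7 and 11.6 FPKM in controls 1 to 4 and 10.3, 6.48, 14 and 10.7 with triclocarban. The groups overlapped and the log2 change of -0.32 did not pass (adjusted p = 0.382). Keap1, whose protein brings NRF2 to degradation, was low throughout, with 2.26, 1.80, 1.76 and 2.25 FPKM in controls and 0.66, 1.05, 0.22 and 0.33 with triclocarban. All treated libraries were below all controls, and Keap1 fell by 0.97 on the log2(FPKM + 1) scale (adjusted p = 0.00452, and 0.0595 after quantile normalization). The size is uncertain at this level, and ran from -1.84 to -0.34 under the other settings. Keap1 reached 1 FPKM in every control but, among treated libraries, only in library 2, so its controls alone carried it past the filter. Hmox2, the constitutive heme oxygenase (chromosome 16, 4726361 to 4766742, plus strand, GRCm38), had 34.9, 41.4, 68.0 and 50.1 FPKM in controls and 16.3, 5.25, 14 and 14.9 with triclocarban. It fell without overlap (log2 change -1.93, SE 0.36, adjusted p = 0.00137). Hmox1, the inducible heme oxygenase and a usual NRF2 target, had 5.56, 6.08, 2.10 and 1.32 FPKM in controls and 4.34, 0.91, 6.24 and 3.86 with triclocarban, a log2 change of 0.03 with overlapping groups (adjusted p = 0.971).

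Among the genes that make and recycle glutathione, both ligase steps had a lower member. Gclc, the catalytic subunit of the first step, had 2.86, 3.57, 8.57 and 11.3 FPKM in controls 1 to 4 and 0.90, 3.41, 1.62 and 0.91 with triclocarban. Triclocarban library 2 reached into the range of controls 1 and 2, and the log2 change was -1.41 (adjusted p = 0.0176). The call depended on several choices: without controls 3 and 4 the change was -0.72 (adjusted p = 0.178), and it was also lost without control 3, or triclocarban library 1 or 4, alone, after quantile normalization (adjusted p = 0.0909) and without the filter (adjusted p = 0.0603). Its partner Gclm had 16.1, 11.3, 7.51 and 6.94 FPKM in controls and 9.66, 11, 6.57 and 8.87 with triclocarban, with overlapping groups (log2 change -0.14, adjusted p = 0.737). Gss, the second step (chromosome 2, 155563181 to 155592810, minus strand), had 5.35, 7.23, 6.20 and 6.73 FPKM in controls. It had 2.35, 1.3, 2.01 and 0.75 with triclocarban, all below the controls, and fell by 1.54 on the log2 scale (SE 0.27, adjusted p = 0.000866). Gsr, the reductase, had 2.62, 2.08, 3.58 and 4.27 FPKM against 1.89, 1.80, 1.71 and 1.98. These groups did not overlap either, yet the change of -0.51 missed the threshold (adjusted p = 0.105).

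Chac2 went the other way (ENSMUSG00000020309.6, chromosome 11, 30976707 to 30986350, minus strand). Its product is a gamma-glutamylcyclotransferase that acts on glutathione itself. Chac2 had 10.8, 20.2, 3.37 and 1.69 FPKM in controls 1 to 4 and 69.2, 63.1, 45.9 and 41.9 with triclocarban. Every treated library was above every control, and the mean was 6.11 times that of the controls (log2 change 2.90, SE 0.55, adjusted p = 0.00149). The size depended on the pair of controls: leaving out controls 1 and 2 gave 4.00, leaving out controls 3 and 4 gave 1.80, and both passed.

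Of the 8 glutathione peroxidase genes, 5 were tested: Gpx1, Gpx3, Gpx4 and Gpx7 were lower and Gpx6 was higher. Gpx4, whose selenoprotein reduces lipid peroxides in membranes (chromosome 10, 80047166 to 80056439, plus strand), had 74.7, 82.8, 98.1 and 83.5 FPKM in controls. With triclocarban it had 12.4, 10.9, 16.0 and 17.7 FPKM, far below the controls in every library. Its mean was 0.168 of the control mean (log2 change -2.51, SE 0.25, adjusted p = 5.21e-05), and between -2.62 and -2.21 under the other settings. In the annotated transcripts, 48.4% of the 100-base stretches of the longest Gpx4 transcript recur in another gene, chiefly the copy Gpx4-ps2, and the treatment of reads that fit both is not stated.

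Gpx1, the widely expressed cytosolic selenoenzyme, had 60.2, 65.8, 78.5 and 76.6 FPKM in controls and 25.2, 10.6, 30.3 and 26.0 with triclocarban. It fell without overlap (log2 change -1.66, SE 0.32, adjusted p = 0.0018). Gpx3, the secreted form, had 49.0, 27.0, 21.6 and 19.4 FPKM in controls and 16.7, 9.47, 15.3 and 5.75 with triclocarban. Here controls 1 and 2 were the higher pair, and the fall of 1.24 (adjusted p = 0.0208) did not pass without them (adjusted p = 0.109) or without triclocarban library 4. Gpx7, an endoplasmic reticulum form, had 3.32, 5.98, 6.49 and 6.08 FPKM against 0.40, 0.89, 1.25 and 1.60 (log2 change -1.67, adjusted p = 0.000721).

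Gpx6, a close relative of Gpx3 that carries cysteine in place of selenocysteine in the mouse, had 22.3, 16.2, 2.99 and 3.71 FPKM in controls 1 to 4 and 52.5, 12.5, 50.1 and 60.9 with triclocarban. Triclocarban library 2 lay below controls 1 and 2, so the groups overlapped. The rise of 2.06 (SE 0.63, adjusted p = 0.0215) was 0.96 without controls 3 and 4 (adjusted p = 0.261) and was also lost without control 3, control 4, or triclocarban library 1, 3 or 4. Gpx6 made up 10.6, 8.2, 1.4 and 2.0% of the summed glutathione peroxidase FPKM of controls 1 to 4, and 49.0, 28.0, 44.3 and 54.3% with triclocarban. The sum itself was 190 to 210 FPKM in controls and 44.6 to 113 with triclocarban.

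**Figure D2:**
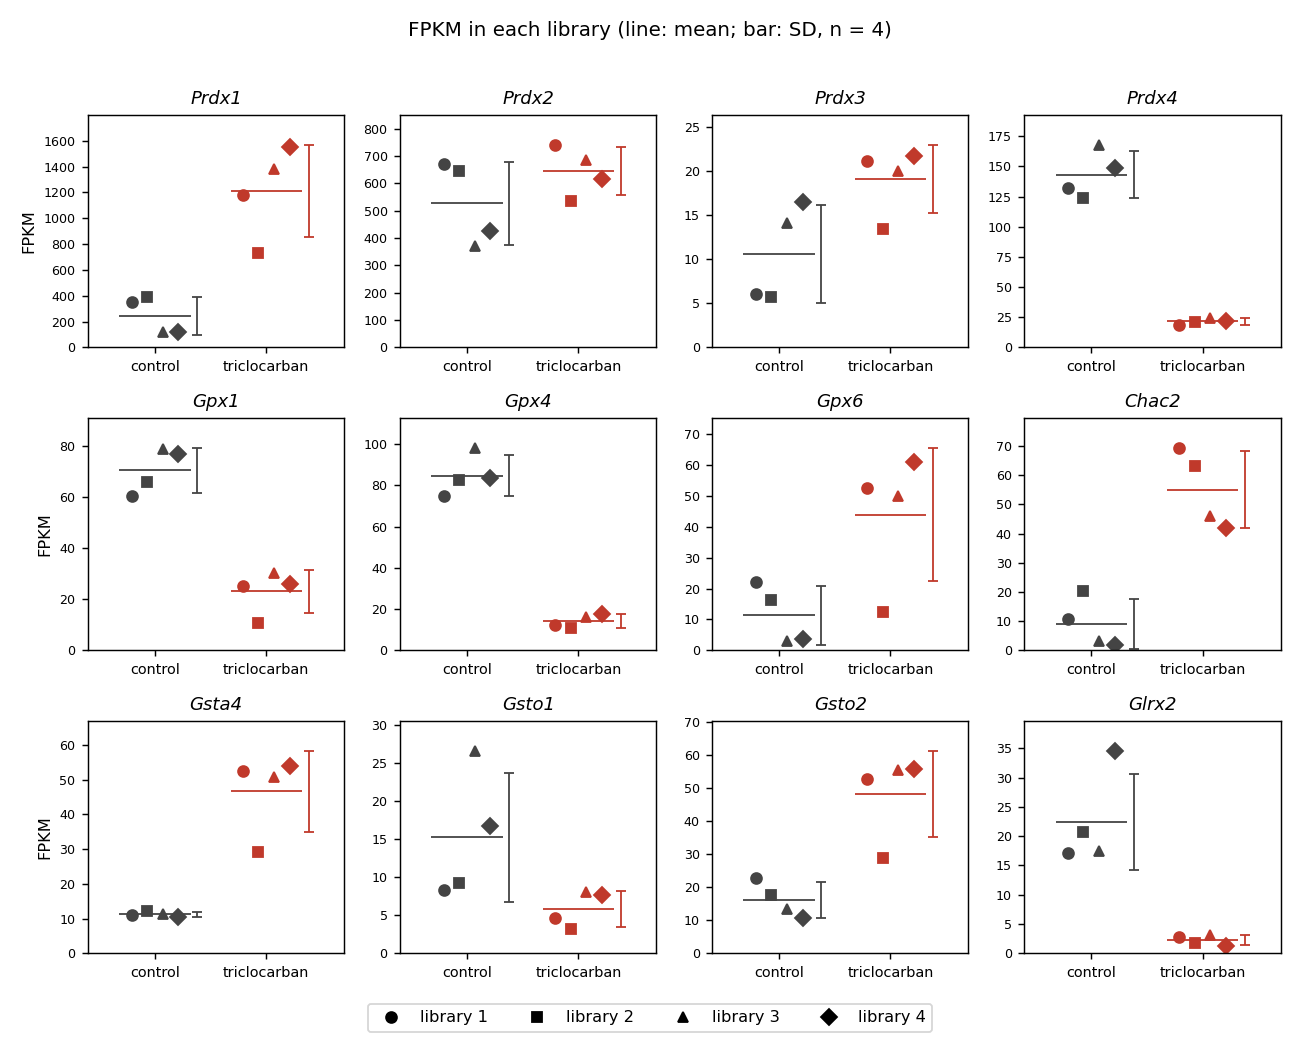
FPKM of 12 members in each of the 4 control and 4 triclocarban libraries (marker shape gives the library number), with the mean as a line and the SD as a bar; each vertical axis starts at 0 and has its own range. Prdx1, Chac2, Gsta4 and Gsto2 lie higher in all treated libraries, Prdx4, Gpx1, Gpx4, Gsto1 and Glrx2 lower in all, and Prdx2, Prdx3 and Gpx6 overlap.

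Glutathione transferases were the group with the most rises. Of 22 genes, 10 were tested: 6 were higher, 1 was lower and 3 did not pass. The median log2 change of those tested was 1.03. Over all genes tested 11.3% were higher and 30.8% lower. In 5 of the 6 higher transferase genes, controls 1 and 2 were both above controls 3 and 4. Of the 6, only Gsta4, Gsto2 and Gstp1 passed without controls 3 and 4, so the count of rises depended on that pair. Gsta4, which clears aldehydes formed from oxidized lipids (chromosome 9, 78182774 to 78209349, plus strand), had 11, 12.2, 11.2 and 10.6 FPKM in controls. It had 52.6, 29.3, 50.9 and 53.9 with triclocarban. The 4 controls were nearly level and all treated libraries were above them (log2 change 1.92, SE 0.26, adjusted p = 0.00022). Unlike the other higher members it did not part the pairs of controls, and its change was 1.97 without the first pair and 1.88 without the other.

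The omega class genes Gsto1 and Gsto2, whose products also reduce dehydroascorbate, lie next to each other on chromosome 19 (47854970 to 47864790 and 47865534 to 47886324, both on the plus strand), and moved in opposite directions. Gsto2 had 22.9, 17.7, 13.4 and 10.6 FPKM in controls and 52.6, 28.7, 55.5 and 55.8 with triclocarban, a rise without overlap (log2 change 1.52, SE 0.31, adjusted p = 0.00254). Gsto1 had 8.37, 9.26, 26.6 and 16.8 FPKM in controls and 4.63, 3.14, 8 and 7.71 with triclocarban. All its treated libraries were below the controls (log2 change -1.17, adjusted p = 0.0319), but the call was lost after median-of-ratios scaling (adjusted p = 0.101), without controls 3 and 4 (adjusted p = 0.267), and without control 3, control 4, or triclocarban library 1 or 2.

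Gstp1, the pi class enzyme, had 20.3, 22.7, 5.83 and 7.04 FPKM in controls 1 to 4 and 45.9, 31.4, 39.0 and 47.6 with triclocarban (log2 change 1.68, SE 0.41, adjusted p = 0.00659). Its neighbour Gstp2 had 7.32, 9.17, 2.35 and 2.70 FPKM in controls and 13.6, 10.6, 9.09 and 12.0 with triclocarban (log2 change 1.10, adjusted p = 0.0341). Their sequences are so close that 52.8% of the 100-base stretches of Gstp1 and 63.5% of those of Gstp2 recur in another annotated gene, so the split between them is uncertain. The Gstp2 call was lost without controls 3 and 4 (adjusted p = 0.283), without either of them alone and without any 1 treated library. Gstz1, which acts in tyrosine breakdown, rose by 0.97 (adjusted p = 0.0489) and the mitochondrial and peroxisomal Gstk1 by 0.86 (adjusted p = 0.0433). Both were lost without controls 3 and 4 (adjusted p = 0.412 and 0.314), without either alone, and without triclocarban library 1, 3 or 4.

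The 3 mu class genes tested, all on chromosome 3, did not pass. Among the members, Gstm5 was the transferase with the highest level, with 100, 119, 41.2 and 46.8 FPKM in controls 1 to 4 and 162, 78.2, 117 and 154 with triclocarban (log2 change 0.82, adjusted p = 0.111). Gstm6 was at 0.38 to 8.89 FPKM in controls and 3.90 to 13.2 with triclocarban (1.44, adjusted p = 0.0676), and Gstm1 at 6.26 to 13.0 and 1.67 to 8.19 (-0.86, adjusted p = 0.0926). Without controls 1 and 2 these 3 passed, with adjusted p = 0.00585, 0.00187 and 0.0487. Without controls 3 and 4 their changes were 0.17, 0.33 and -0.49, and none passed (adjusted p = 0.740, 0.624 and 0.463).

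Peroxiredoxins, which reduce hydrogen peroxide through a reactive cysteine, showed the widest contrast between close relatives. Prdx1 (ENSMUSG00000028691.6, chromosome 4, 116685544 to 116700822, plus strand) had 349, 389.8, 116 and 119 FPKM in controls 1 to 4 and 1178, 729, 1382 and 1551 with triclocarban. Even the lowest treated library was above the highest control. The means were 243.7 ± 146.2 and 1210.0 ± 355.1 FPKM (SD, n = 4 each), and the log2 change was 2.47 (SE 0.44, adjusted p = 0.00106). Leaving out controls 1 and 2 gave a change of 3.29 and leaving out controls 3 and 4 one of 1.66, and both passed. Only 0.866% of its 100-base stretches recur in another annotated gene.

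Prdx4, which works in the endoplasmic reticulum (ENSMUSG00000025289.9, chromosome X, 155323918 to 155340754, minus strand), had 132, 124, 168 and 149 FPKM in controls. With triclocarban it had 18.2, 21.5, 24.4 and 22.1 FPKM. Both groups were tight and far apart, with 143.3 ± 19.3 and 21.6 ± 2.53 FPKM (SD, n = 4 each). The log2 change of -2.68 (SE 0.23, adjusted p = 4.03e-05) stayed between -2.83 and -2.38 under the other settings.

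Prdx5, found in mitochondria and peroxisomes, had 31.8, 23.8, 43.9 and 55.0 FPKM in controls and 12.2, 5.71, 11.7 and 12.0 with triclocarban (log2 change -1.78, SE 0.33, adjusted p = 0.00137). Prdx6, the form that uses glutathione instead of thioredoxin, had 28.9, 45.4, 32.7 and 38 FPKM in controls and 15.8, 4.35, 17.1 and 15.3 with triclocarban (-1.53, SE 0.38, adjusted p = 0.00778). Neither gene's groups overlapped. Prdx2, the second cytosolic form, was as abundant as Prdx1 or more so in controls, with 669, 645, 371 and 425 FPKM, and had 739, 536, 685 and 616 with triclocarban. Its groups overlapped and its change of 0.32 did not pass (adjusted p = 0.371). Prdx3, the mitochondrial form, was the one peroxiredoxin with controls 3 and 4 nearest to the treated libraries: it had 6.07, 5.66, 14.1 and 16.5 FPKM in controls and 21.1, 13.4, 20 and 21.7 with triclocarban. Its change of 0.90 missed the threshold (adjusted p = 0.0629), was 1.52 without controls 3 and 4 (adjusted p = 0.00395) and 0.28 without controls 1 and 2 (adjusted p = 0.412).

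Within the summed peroxiredoxin FPKM, Prdx1 held 28.7, 31.6, 15.6 and 14.9% in controls 1 to 4, against 59.4, 55.6, 64.6 and 69.3% with triclocarban. Prdx4 held 10.1 to 22.5% in controls and 0.9 to 1.6% with triclocarban. The sum was 745 to 1234 FPKM in controls and 1310 to 2238 with triclocarban. Srxn1, which repairs overoxidized peroxiredoxins, was below the filter with 0.75, 2.57, 1.24 and 0.21 FPKM in controls and 0.15, 0, 0.13 and 0.33 with triclocarban.

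**Figure D3:**
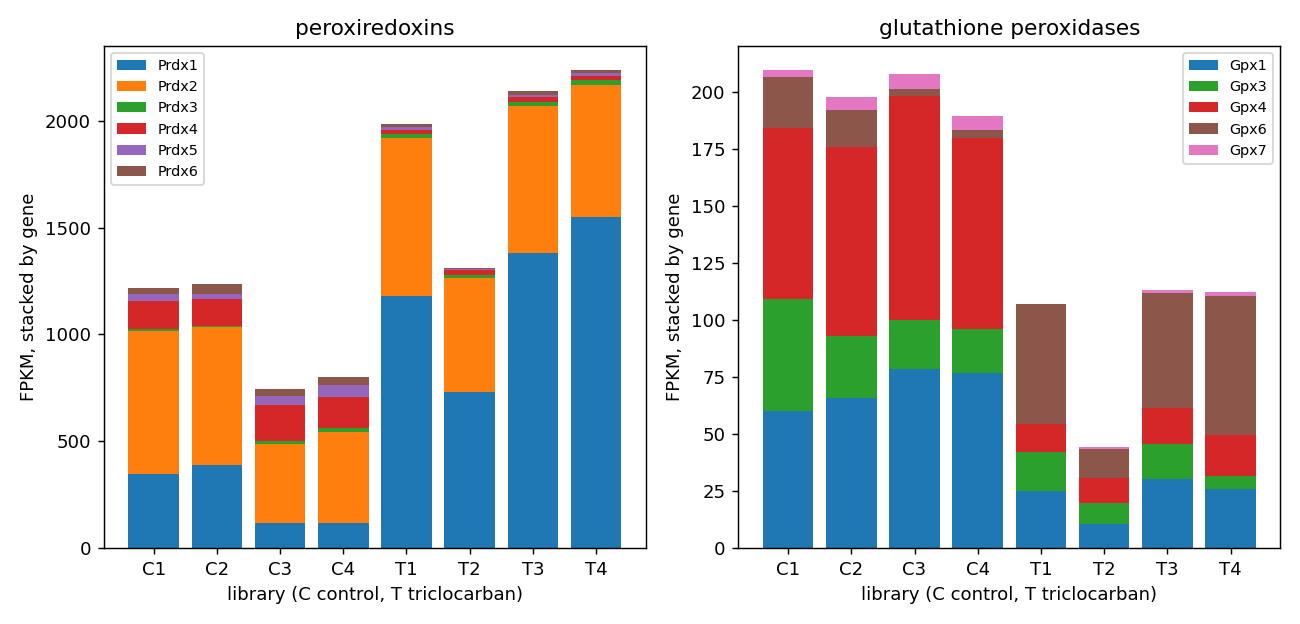
FPKM of the peroxiredoxin genes (left) and of the glutathione peroxidase genes with at least 3 FPKM in any library (right), stacked by gene, in control libraries C1 to C4 and triclocarban libraries T1 to T4; both axes start at 0. Prdx1 makes up 55.6 to 69.3% of the treated peroxiredoxin bars, and the peroxidase bars, at most 113 FPKM with triclocarban, hold less Gpx1 and Gpx4 than those of the controls.

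In the thioredoxin system the changes were smaller. Txn1, the cytosolic thioredoxin, had 30.1, 34.5, 29.2 and 21.3 FPKM in controls and 48.5, 49.7, 41.2 and 48.5 with triclocarban. All treated libraries were above all controls and it rose by 0.70 (SE 0.24, adjusted p = 0.0337), but not past the threshold without controls 3 and 4 (adjusted p = 0.118), without either alone, or without triclocarban library 1, 3 or 4. The same call was lost with the replicate number as a block. Txnrd1, the cytosolic thioredoxin reductase and a selenoprotein, had 4.28, 4.86, 3.48 and 1.67 FPKM against 7.57, 6.10, 6.39 and 5.19. Its groups did not overlap, and its change of 0.73 missed the threshold (adjusted p = 0.0645), which it passed after median-of-ratios scaling (adjusted p = 0.0124). Txnrd3, a reductase best known from testis, was at 1.16 to 3.67 FPKM in controls and 3.02 to 6.04 with triclocarban (0.72, adjusted p = 0.0912). The mitochondrial thioredoxin gene Txn2 was at 20.7 to 81.0 and 32.7 to 73.5 FPKM (0.62, adjusted p = 0.294). Txnip, whose product binds and inhibits thioredoxin, was at 10.8 to 15.5 and 7.45 to 17.6 FPKM (-0.21, adjusted p = 0.59).

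All 12 genes for thioredoxin-like and thioredoxin-domain proteins were tested, and 1 was higher (8.33%), 2 lower (16.7%) and 9 did not pass. Both shares were below the 11.3% higher and 30.8% lower of all genes tested. Txnl1, a thioredoxin-like protein bound to the proteasome, had 29.5, 32.8, 21.5 and 19.8 FPKM in controls and 60.0, 44.8, 64.2 and 68.4 with triclocarban, a rise without overlap (log2 change 1.18, SE 0.26, adjusted p = 0.00396). Txndc15 had 9.16, 11.2, 10.3 and 13.5 FPKM in controls and 6.13, 2.59, 6.00 and 4.62 with triclocarban. It fell by 1.08 (adjusted p = 0.0101, 0.0559 without controls 3 and 4 and 0.0725 after quantile normalization). Txndc11, a partner of the dual oxidases, fell by 0.70 (adjusted p = 0.0362, and 0.158 after median-of-ratios scaling). It was also lost without controls 1 and 2 (adjusted p = 0.0656), without control 1, 2 or 4 alone, and without triclocarban library 3 or 4. The 9 others (Txndc2, Txndc5, Txndc8, Txndc9, Txndc12, Txndc16, Txndc17, Txnl4a and Txnl4b) had changes from -0.57 for Txndc16 to 0.79 for Txndc2 and Txndc5.

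The glutaredoxins ranged from the deepest fall of all members to a rise. Glrx2, of which mitochondrial and other forms are known (ENSMUSG00000018196.11, chromosome 1, 143716338 to 143749676, plus strand), had 17.2, 20.8, 17.5 and 34.5 FPKM in controls and 2.71, 1.75, 3.12 and 1.28 with triclocarban. Every treated library was far below every control, at 0.0985 of the control mean (log2 change -2.85, SE 0.31, adjusted p = 7.83e-05). Glrx3, a cytosolic carrier of iron-sulfur clusters, had 25.8, 25.9, 64.6 and 43.3 FPKM in controls and 16.5, 11.9, 10.8 and 9.52 with triclocarban (-1.55, SE 0.33, adjusted p = 0.00309). Glrx5, which serves iron-sulfur cluster assembly in mitochondria, was at 65.6 to 139 and 95.6 to 131 FPKM, and its change of 0.22 did not pass (adjusted p = 0.584). Glrx, the cytosolic dithiol form, had 55.6, 53.8, 12.1 and 12.8 FPKM in controls 1 to 4 and 131, 46.2, 82.6 and 83.8 with triclocarban. The groups overlapped through triclocarban library 2, and the rise of 1.57 (adjusted p = 0.0311) was 0.55 without controls 3 and 4 (adjusted p = 0.325). The rise was also lost without control 3, control 4, or triclocarban library 1, 3 or 4.

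Sod1, the cytosolic copper and zinc superoxide dismutase (chromosome 16, 90220754 to 90226329, plus strand), had 341, 315, 251 and 270.4 FPKM in controls and 628, 353, 626 and 691 with triclocarban. The lowest treated library was just above the highest control, and Sod1 rose by 0.93 (SE 0.28, adjusted p = 0.0189). It missed the threshold without controls 3 and 4 (adjusted p = 0.105), without control 3 alone, and without triclocarban library 1, 3 or 4. Sod2, the mitochondrial manganese form, had 29.2, 31.2, 41.2 and 35.9 FPKM in controls and 23.1, 20.4, 24.3 and 24.7 with triclocarban. All treated libraries were lower, but the change of -0.54 missed the threshold (adjusted p = 0.0785). The catalase gene Cat was near 1 FPKM everywhere, with 0.93, 1.40, 0.85 and 0.90 in controls and 0.76, 1.00, 1.40 and 0.81 with triclocarban, and was below the filter.

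The 19 members below the filter were Cat, Gpx2, Gpx5, Gpx8, Gsta1, Gsta2, Gsta3, Gstm2, Gstm3, Gstm4, Gstm7, Gstp3, Gstt1, Gstt2, Gstt3, Gstt4, Sod3, Srxn1 and Txnrd2. None exceeded 3.59 FPKM, the level of Gsta3 in control 3. Singled out after their values were seen, Gsta3 had 1.34, 0.65, 3.59 and 3.44 FPKM in controls and 0.13, 0, 0 and 0.08 with triclocarban, and Gstp3 had 0.61 to 1.75 FPKM in controls and was listed at 0 in all 4 treated libraries. Gsta1 went the other way, with at most 0.07 FPKM in controls and 0.22 to 1.17 with triclocarban, and 81.8% of its 100-base stretches recur in another annotated gene. These genes are given with no test, since they were picked for this pattern. Of the 53 tested members, 13 have exons that overlap a gene on the opposite strand, among them Prdx2, Prdx5, Gss, Hmox2 and Keap1. Whether the counting used strand is not stated, so reads of such pairs cannot be told apart.

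Other genes of the pathway, 81 in a list, had 65 members tested. Of these, 9 were higher (13.85%) and 18 lower (27.69%), near the 11.3% and 30.8% of all genes tested. The counts of the smaller lists below rest on few genes each. Median-of-ratios scaling gave 18 in each direction. In the supply and breakdown of glutathione (3 higher, 2 lower of 10), Ggct, a cyclotransferase of the breakdown pathway, rose by 1.55, while Ggt6, of the gamma-glutamyltransferase family, changed by -1.61 and the dipeptidase gene Cndp2 by -2.37. Ggt6, Cndp2, Ptges and Blvrb, the last counted as lower among the NRF2 partners and targets, reached 1 FPKM only in the 4 controls. They passed the filter through the group where they were high. The cystine import gene Slc7a11 had overlapping groups, and its change of 0.65 did not pass (adjusted p = 0.125). Among sources of NADPH (2 higher, 3 lower of 11) the cytosolic Idh1 went from 6.97 ± 1.29 to 30.2 ± 6.94 FPKM (SD, n = 4 each, log2 change 1.95), and the mitochondrial Idh2 and the pentose phosphate gene Pgd changed by -1.66 and -1.75. A list of microsomal transferases and genes grouped with them had 1 higher and 2 lower of 7 tested. Mgst3 rose by 2.32. Eef1g and Ptges, whose symbols do not mark glutathione transferases, were at -1.93 and -1.79. NRF2 partners and targets (2 higher, 4 lower of 13) included Bach1, a repressor at the same DNA element, at -1.93. Its relative Bach2 was higher by 1.94 with overlapping groups (adjusted p = 0.0283, and 0.278 without controls 3 and 4). Mafk, a small MAF partner, was at -1.62 and Cul3, the ligase scaffold that works with KEAP1, at -2.27, while Rbx1, the RING subunit of such ligases, was higher by 1.05. The target gene Nqo1 was level, with 7.57 ± 0.95 and 8.59 ± 1.64 FPKM (SD, n = 4 each, adjusted p = 0.649). Of 7 genes for selenoprotein synthesis only Sephs1 passed, at -1.46. Of 17 other defence genes, 1 was higher (5.88%) and 6 lower (35.3%), beside 11.3% and 30.8% of all genes tested. The smallest adjusted p were those of the sestrin genes Sesn2, at -2.53, and Sesn1, at -2.35, and of Hagh, of the glyoxalase pathway, at -2.60. Msrb1, a methionine sulfoxide reductase and selenoprotein, had a deeper change of -2.74.

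The pairs of controls moved with the direction of change. Of the 13 higher members, 12 had controls 1 and 2 both above controls 3 and 4, beside 1151 of the 1466 higher genes. Of the 16 lower members, 9 had controls 1 and 2 both below controls 3 and 4, beside 2501 of 3981. The same pairs differed in the summed oocyte transcripts given above, though Dppa3, a large part of that sum, differed the other way. Against controls 3 and 4 alone 22 members were higher and 17 lower, beside 2838 and 4213 of the 12941 genes. Against controls 1 and 2 alone 7 members were higher and 13 lower, beside 695 and 3243 genes. Of the 29 called members, 27 and 19 kept their call in these fits. The 7 higher members against controls 1 and 2 included Chac2, Prdx1, Gsta4, Gsto2, Gstp1 and Txnl1, which passed in every fit, and Prdx3.

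**Figure D4:**
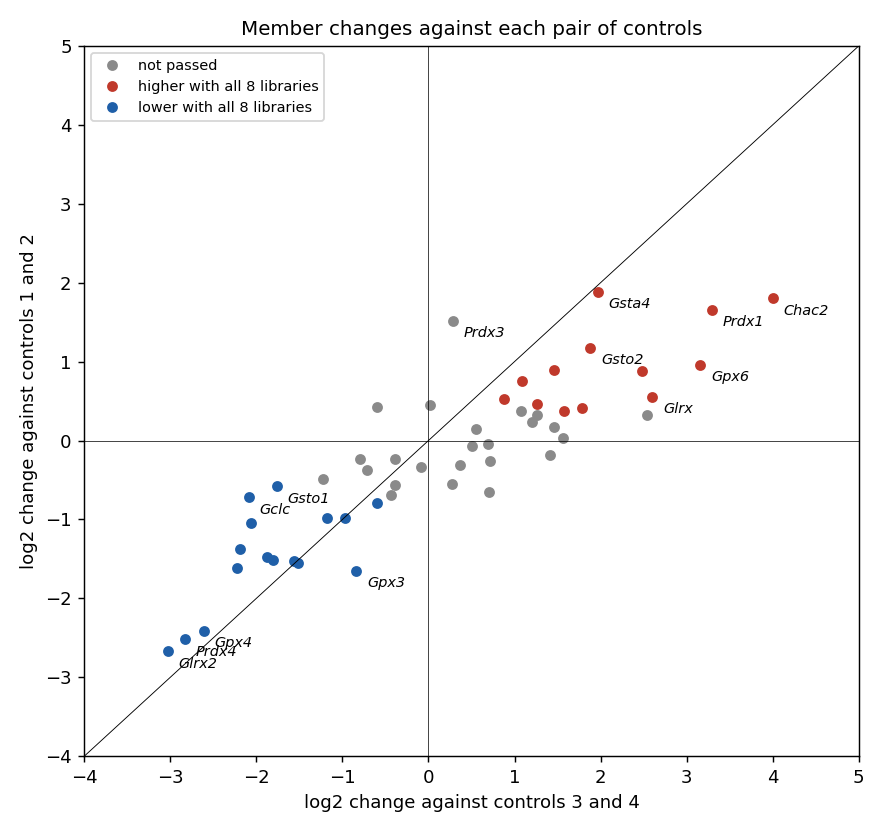
Log2 change of the 53 tested members against controls 3 and 4 only (horizontal axis) and against controls 1 and 2 only (vertical axis); the diagonal marks equal change, and colours give the call with all 8 libraries. Rises such as Chac2 (4.00 and 1.80) and Prdx1 (3.29 and 1.66) lie below the diagonal, Gsta4 (1.97 and 1.88), Prdx4 and Gpx4 lie near it, and Prdx3 (0.28 and 1.52) lies above it.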

How the data were processed

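RNA of 4 control and 4 triclocarban libraries was read as 150-base pairs, per the labels' protocols, which describe more than 1 library kit without saying which made these libraries. The FPKM values were made and deposited by the authors as 1 table. The submitters' processing notes list STAR, StringTie, featureCounts, DESeq2 1.30.1 and mm10 without their roles, and the annotation release and strand setting are not given here. Columns were assigned by the sample descriptions, and no pair of libraries was identical. Depth is not known from FPKM: taking the commonest product of FPKM and exon length as 1 fragment, 5.3 to 7.3% of low values lay within 0.02 of a whole number, where chance gives 4%, and the rough depth was 6944802 fragments in triclocarban library 2 and 10573328 to 14836833 in the others. No count test was run.

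Gene identifiers, less their version, were looked up in GENCODE M21 (GRCm38, the assembly of mm10) (87.4% matched, 95.0% of those tested). The 12941 genes that reached 1 FPKM in 4 or more libraries were fitted with limma 3.58.1 (lmFit, eBayes with trend, two-sided) on log2(FPKM + 1) in R 4.3.3, treatment as the only term, with Benjamini-Hochberg adjustment over all of them and a threshold of 0.05. The pseudocount understates changes of low genes. The limma step was tested on simulated data. Recurrence of 100-base stretches was counted over the GENCODE M21 transcripts, from the longest protein-coding transcript of each gene. Tables and figures used Python 3.11.15, pandas 2.3.3, numpy 2.4.6 and matplotlib 3.10.9.

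Values in every library are given for members past the threshold with an absolute log2 change of at least 1 and for 17 genes whatever their test; of the other pathway genes up to 3 per list, by smallest adjusted p, are named. Slc7a11, Nqo1, Msrb1, Bach2, Rbx1, Gsta1, Gstp3 and the values per library of Prdx2, Prdx3, Gstm5 and Gsta3 were added after their values were seen. The members and lists were chosen with earlier results of these data known. The results were recomputed with pseudocounts 0.1 and 5, without the filter or with a mean of at least 5 FPKM, with median-of-ratios, quantile or mitochondria-free scaling, with a replicate block, with limma's library weights, with robust or untrended eBayes, with a minimum log2 change of 1, and leaving out single libraries or either pair of controls.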

Additional observations from a re-analysis of the deposited data

Results flagged for a closer look

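Within a group of 4 libraries, a single library was singled out when its gap to the nearest of the others, divided by the group's range, was above Dixon's critical value for groups of that size, which chance alone does in about 1 of 20 groups. This was looked at for the 38 genes with values given for every library, 76 groups in all, and 7 met it. Triclocarban library 2 was the lowest of its group for 4 genes: Gsta4 at 29.3 FPKM (others 50.9 to 53.9), Gsto2 at 28.7 (others 52.6 to 55.8), Prdx5 at 5.71 (others 11.7 to 12.2) and Prdx6 at 4.35 (others 15.3 to 17.1). This library also had the lowest FPKM sum. Triclocarban library 3 was the lowest for Txn1, at 41.2 FPKM (others 48.5 to 49.7). Control 1 was the lowest for Gpx7, at 3.32 FPKM (others 5.98 to 6.49), and control 2 the highest for Cat, at 1.40 FPKM (others 0.85 to 0.93).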

How the results depend on the processing

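No called member changed direction under any alternative it could be fitted in, and 16 of the 29 were called in every one with a test of the change against 0: Chac2, Glrx2, Glrx3, Gpx1, Gpx4, Gpx7, Gss, Gsta4, Gsto2, Gstp1, Hmox2, Prdx1, Prdx4, Prdx5, Prdx6 and Txnl1 (Gpx7 and Gss were left out by the stricter filter). Leaving out 1 library gave 6 to 16 higher and 13 to 16 lower members, 953 to 1860 higher genes of all tested, and a median member change of -0.07 to 0.31. Higher members numbered 20 after median-of-ratios scaling, 22 without controls 1 and 2 (the first pair) and 7 without controls 3 and 4; lower members numbered 10 after quantile normalization. Higher genes of all tested numbered 2637 after median-of-ratios scaling, 2915 after quantile normalization, 2838 without the first pair of controls and 695 without the other, and 2487 were lower with the stricter filter, which tests fewer genes. Other redox genes had 18, 17 and 17 higher with median-of-ratios scaling, quantile normalization and without controls 1 and 2, and 10 lower with the stricter filter. The members' median was 0.31, 0.33 and -0.23 with median-of-ratios scaling, quantile normalization and without controls 3 and 4. Among members that did not pass, the sign turned for Gclm (0.14, 0.24 and 0.27 with median-of-ratios scaling, quantile normalization and without controls 1 and 2; -0.30 to 0.07 leaving out 1 library, above 0 without control 1), Nfe2l2 (0.09, quantile normalization) and Hmox1 (-0.65 without controls 3 and 4, -0.02 when scaled without mitochondrially encoded genes, -0.27 to 0.42 leaving out 1 library, below 0 without control 3 or 4 or triclocarban library 1, 3 or 4); the cause was not tested. Leaving out controls 3 and 4 also turned Glrx5 (-0.26), Prdx2 (-0.04), Txn2 (-0.18) and Txndc17 (-0.07), both median-of-ratios and quantile scaling turned Txnip, and Txnl4a and Txnl4b turned in 6 and 7 settings (-0.60 to 0.42 and -0.31 to 0.42). Calls were also lost for Gstz1 with pseudocount 0.1, for Gstk1, Gstz1 and Txn1 when scaled without mitochondrially encoded genes, and for Gsto1 with library weights. With the replicate block, 12 members were higher and 17 lower, and Txn1 and Gstz1 lost their call. Same-numbered libraries had deviations correlated at 0.338, 0.053, 0.095 and 0.104. Libraries of different number were not compared in this way, so these values cannot show whether the numbers are pairs. The labels name no batch, culture or animal, so the number was no block in the main fit.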

Other observations

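All 72 genes together made up 0.517, 0.503, 0.335 and 0.324% of the FPKM sum in controls 1 to 4 and 0.742, 0.53, 0.709 and 0.743% with triclocarban. By this share the lowest treated library, number 2, lay just above the highest control, but this library also had the lowest FPKM sum. In summed FPKM of the members the groups overlapped. Triclocarban library 2 had 2534.6 FPKM, below controls 1 and 2 with 2761.1 and 2726.5. Most of the difference in level came from few genes: the peroxiredoxin sum, the largest of the families, and the superoxide dismutase sum, which was 292 to 370 FPKM in controls and 373 to 716 with triclocarban and of which Sod1 made up 85.9 to 96.5%. The transferase sum was 200.5, 215, 125 and 116 FPKM in controls and 369.9, 200.3, 318 and 366 with triclocarban, with triclocarban library 2 inside the range of the controls.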
